A study of Mus musculus with 10 samples.

Results

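Keratin genes of mouse chromosomes 11 and 15 were examined in embryonic stem (ES) cells that carry an extra copy of chromosome 6, 8, 11 or 15. A keratin gene was counted where an experimental probe of the array bore a gene name made of Krt and a number only. The rule found 47 genes, measured by 62 probes, among 35080 named features and 55681 experimental probes. Of the genes 25, with 34 probes, lay on chromosome 11, and 22, with 28 probes, lay on chromosome 15. The Krt85 probe used has no mapped position and is counted on chromosome 15 with its gene. The rule itself reads names and no measured values. The members, and the gene lists and roles used below, were nevertheless chosen with earlier results of these data known. The probe list names 1 gene Krt83 that the current RefSeq table calls Krt87, and the array's name is used throughout.

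The arrays held 10 RNA samples, 2 from each of 5 groups, hybridised to one-colour (Cy3) Agilent arrays. Ts6, Ts8, Ts11 and Ts15 are ES cell lines trisomic for the chromosome in their name, and each trisomy was represented by 1 line. WT is AB1, a male diploid ES line. Samples were taken at passages 9 and 18 for Ts6, 10 and 13 for Ts8, 8 and 11 for Ts11, 11 and 14 for Ts15, and 18 and 20 for WT, in each case with the lower passage as replicate 1. The trisomic lines are labelled as strain 129 S7/SvEvBrd, and their sex is not given in the labels. All groups were grown on irradiated SNL76/7 feeder cells, a fibroblast line that was depleted by settling before RNA was taken. Differences between a line and WT therefore hold everything that separates 2 cell lines, the extra chromosome included, and these cannot be told apart. The Ts15 samples alone were hybridised on a second slide, so line and slide cannot be told apart for Ts15 either.

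Keratins are the intermediate filament proteins of epithelia. Each filament is built from a type I and a type II keratin in equal amount. In the mouse the type I genes form a cluster on chromosome 11 and the type II genes a cluster on chromosome 15, with one exception: Krt18, a type I gene, sits beside its type II partner Krt8 at the edge of the chromosome 15 cluster. An extra chromosome 11 or 15 thus adds copies of the genes for only one side of most keratin pairs, while an extra chromosome 15 adds both Krt8 and Krt18. Krt8 and Krt18 are the keratins of simple epithelia and the first to appear in the embryo, in trophectoderm and extraembryonic endoderm. Most other members are used in stratified epithelia, epidermis, hair and nail, which ES cells do not form in culture.

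In mm9, the genome build named in the file headers, the mapped keratin probes of chromosome 11 ran from 99094648 to 100128311, over 1033.7 kb, and those of chromosome 15 from 101180014 to 101862400, over 682.4 kb. The 60-base probes read transcript and not gene copy, and some keratins are so alike that probes named for different genes share most of their bases. The 2 probes printed first are those of the hair keratins Krt81 (chr15:101290583-101290642) and Krt83 (chr15:101263556-101263615). They are shown because 2 of the genes called in Ts15 below rest on them. Over a shared window of 55 bases 51 were identical (92.7%), and capitals mark the 4 positions that differ.
Krt81 probe: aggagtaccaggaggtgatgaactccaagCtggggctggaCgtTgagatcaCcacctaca
Krt83 probe: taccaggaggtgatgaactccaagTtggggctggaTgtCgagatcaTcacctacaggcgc
Readings of both genes are therefore uncertain as to which transcript they count. Krt85 is another hair keratin of the same close family. Its probe used here has no mapped position, so what it reads is uncertain too. Bases shared with Krt85 probes were not counted.

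The next 3 probes read keratins whose called differences were among the largest: Krt8 (chr15:101828827-101828886), Krt23 (chr11:99339393-99339452) and Krt2 (chr15:101642000-101642059).
Krt8 probe: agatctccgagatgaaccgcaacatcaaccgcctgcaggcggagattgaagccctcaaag
Krt23 probe: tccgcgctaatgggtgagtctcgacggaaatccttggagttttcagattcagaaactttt
Krt2 probe: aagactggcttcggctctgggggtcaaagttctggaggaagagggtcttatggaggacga
The Krt8 probe printed is the gene's second one. The levels of Krt8 given below come from a brighter probe at chr15:101827138-101827197.
The bright Krt222 probe (chr11:99095480-99095539) is shown in part, a stretch of 28 bases that begins at its base 19, because it holds a run of CA dinucleotides 22 bases long, in capitals.
Krt222 probe, part: tgtACACACACACACACACACACACccg
A CA run of that length occurs in 17 of 55681 probes (0.031%). The other Krt222 probe was not above background on any array.

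Levels are log2 processed signals after subtraction of the log2 75th percentile of their array, so a reading of 0 is that percentile and a negative one lies below it. Such a level compares samples for 1 probe and does not rank one gene above another. Of the 62 keratin probes, 42 were well above background by the scanner's own test on all 10 arrays, 10 on some arrays and 10 on none. The counts were 22, 6 and 6 of 34 on chromosome 11 and 20, 4 and 4 of 28 on chromosome 15. Over all experimental probes they were 36764, 10495 and 8422 of 55681. The share of keratin probes above background was 77.4% and 75.8% in Ts11, 79.0% and 69.4% in Ts15, 72.6% and 69.4% in Ts6, and 82.3% and 71.0% in Ts8, against 74.2% and 77.4% in WT. Both Ts6 arrays lay below the WT arrays, and those of Ts8, Ts11 and Ts15 overlapped with them. Over all experimental probes the share was 76.6% and 70.8% in Ts11, 71.9% and 72.8% in Ts15, 71.1% and 71.1% in Ts6, and 79.8% and 74.4% in Ts8, against 77.5% and 78.1% in WT, so the Ts6 arrays lay below WT there too.

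**Figure D1:**
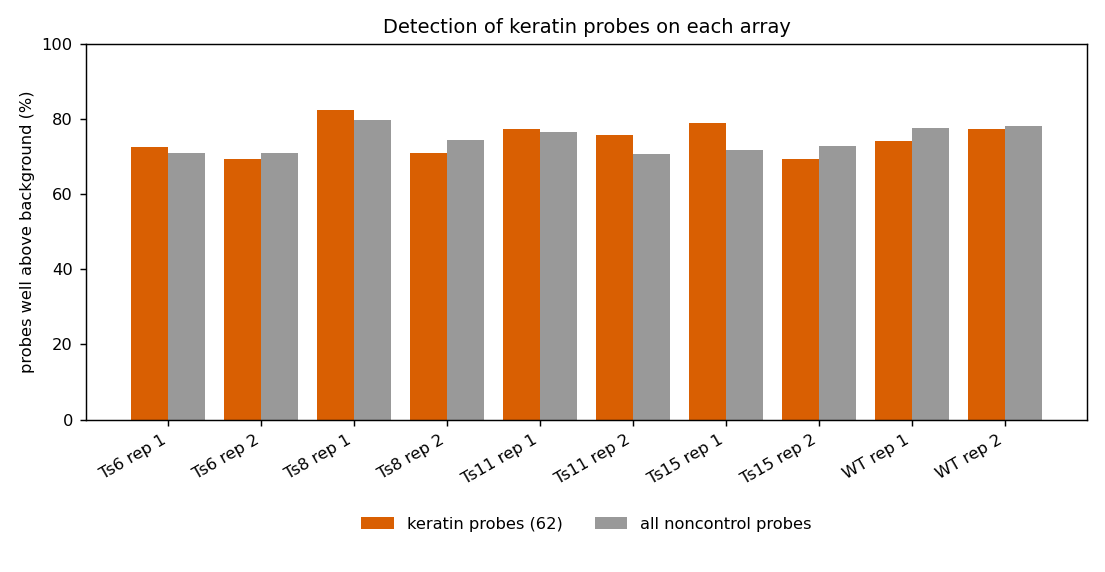
Percentage of probes well above background on each array, for the 62 keratin probes and for all experimental probes, by group with 2 arrays each. Keratin shares lay between 69.4% and 82.3% in every group.

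After a filter on dim probes 39 keratins, 21 of chromosome 11 and 18 of chromosome 15, were tested among 28193 genes. Where a gene had several probes, the one with the highest mean level over all arrays was used. A gene is called here where limma's moderated test gave a Benjamini-Hochberg adjusted p under 0.05 over all genes tested. The 8 keratins left untested were Krt9, Krt25, Krt35 and Krt39 on chromosome 11 and Krt75, Krt76, Krt82 and Krt84 on chromosome 15. Of these, Krt84, a hair keratin, was above background on 1 array, Ts11 replicate 2, and Krt39 on 1 Ts8, 1 Ts11 and 1 WT array. The other untested keratins were above background on no array. In bulk samples such as these, fewer cells of a type and less RNA per cell cannot be told apart. With 2 samples of 1 line in each group, p-values measure the spread between samples of a line and not between independent trisomies.

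Against WT few keratins changed in any line. In Ts11, 4 of 39 rose, all on chromosome 11, namely Krt12, Krt15, Krt23 and Krt34, and 0 fell, where 4.03% of all genes tested rose and 4.1% fell. Krt34 passed the filter on dim probes only through its Ts11 arrays, so its rise there is not independent of the filter. In Ts15, 2 of 39 rose, Krt79 and Krt83, where 2.58% of all genes rose, and 3 fell, Krt2, Krt4 and Krt24, where 4.86% fell. In Ts6, Krt79 rose, 1 of 39, where 4.44% of all genes rose, and Krt1 fell, 1 of 39, where 4.6% fell. In Ts8, limma called 0 of 39 in either direction, where 2.06% of all genes rose and 1.43% fell. At an unadjusted p under 0.05, 5 keratins were higher and 5 lower in Ts8, or 25.6%, where 24.7% of all genes passed. All 4 comparisons use the same WT arrays. With 2 arrays a side, lack of overlap with WT was frequent and is no support by itself. Of 18 chromosome 15 keratins, 11 lay wholly above WT and 3 wholly below in Ts15, and 7 and 6 in Ts11. Of 21 chromosome 11 keratins the numbers were 8 and 5 in Ts15, and 7 and 1 in Ts11. The share over all genes was not counted, so these numbers cannot be read as a shift of the keratins. The counts of called keratins rest on few arrays. Without Ts11 replicate 2 or WT replicate 2 the Ts11 count was 0, without Ts11 replicate 1 it was 2 (Krt23 and Krt28), and without WT replicate 1 it was 3 (Krt12, Krt15 and Krt23). Without Ts15 replicate 2 or WT replicate 2 the Ts15 count was 0, without WT replicate 1 it was 2 (Krt4 and Krt79) and without Ts15 replicate 1 it was 1 (Krt2). The Ts6 count was 0 without Ts6 replicate 1 or WT replicate 1 and 1, Krt1, without Ts6 replicate 2 or WT replicate 2.

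Ts11 and Ts15 were also set against the mean of the other 3 trisomic lines, comparisons that share arrays with each other. In Ts11, 5 of 39 keratins rose, Krt12, Krt23, Krt15, Krt34 and Krt2, where 3.87% of all genes rose, and Krt71 fell, 1 of 39, where 3.66% fell. Here too the Krt34 rise is not independent of the filter. In Ts15, 7 of 39 rose, where 7.08% of all genes rose, and 5 fell, where 12.1% fell. All 7 that rose in Ts15 are genes of chromosome 15, but 1 of them, Krt85, was read by a probe without a mapped position. They are 7 of 18 tested keratins of chromosome 15, where 302 of 1088 other tested genes of that chromosome (27.76%) rose too. The keratins that fell in Ts15 were Krt2 and Krt4 of chromosome 15 and Krt12, Krt24 and Krt34 of chromosome 11. Krt34 passed the filter only through Ts11, a line that Ts15 is set against here. Its fall in Ts15 is thus not independent of the filter either. Without Ts11 replicate 1 the Ts11 count was 1, Krt12, and without Ts11 replicate 2 it was 1, Krt2. Without Ts15 replicate 1 the Ts15 count was 5 (Krt2, Krt4, Krt8, Krt34 and Krt80), and without Ts15 replicate 2 it was 5 (Krt2, Krt8, Krt34, Krt77 and Krt85). The split between rises and falls over all genes in Ts15 against WT moved with the scaling, at 726 and 1370 with the percentile, 772 and 919 with quantile normalization, 774 and 749 with normexp and quantile, and 866 and 822 in the authors' deposited table. In Ts11 against WT it was 1136 and 1156 with the percentile and 1800 and 975 in that table, and in Ts11 against the other lines 1091 and 1031, and 1771 and 915. In Ts15 against the other lines it was 1997 and 3403 with the percentile and 2132 and 2340 with normexp and quantile, and in Ts8 against WT 580 and 404, and 650 and 742. Among keratins, Krt5 was also called higher in Ts15 against WT under quantile, under normexp and quantile and in the authors' table, and Krt86 under quantile and in that table.

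**Figure D2:**
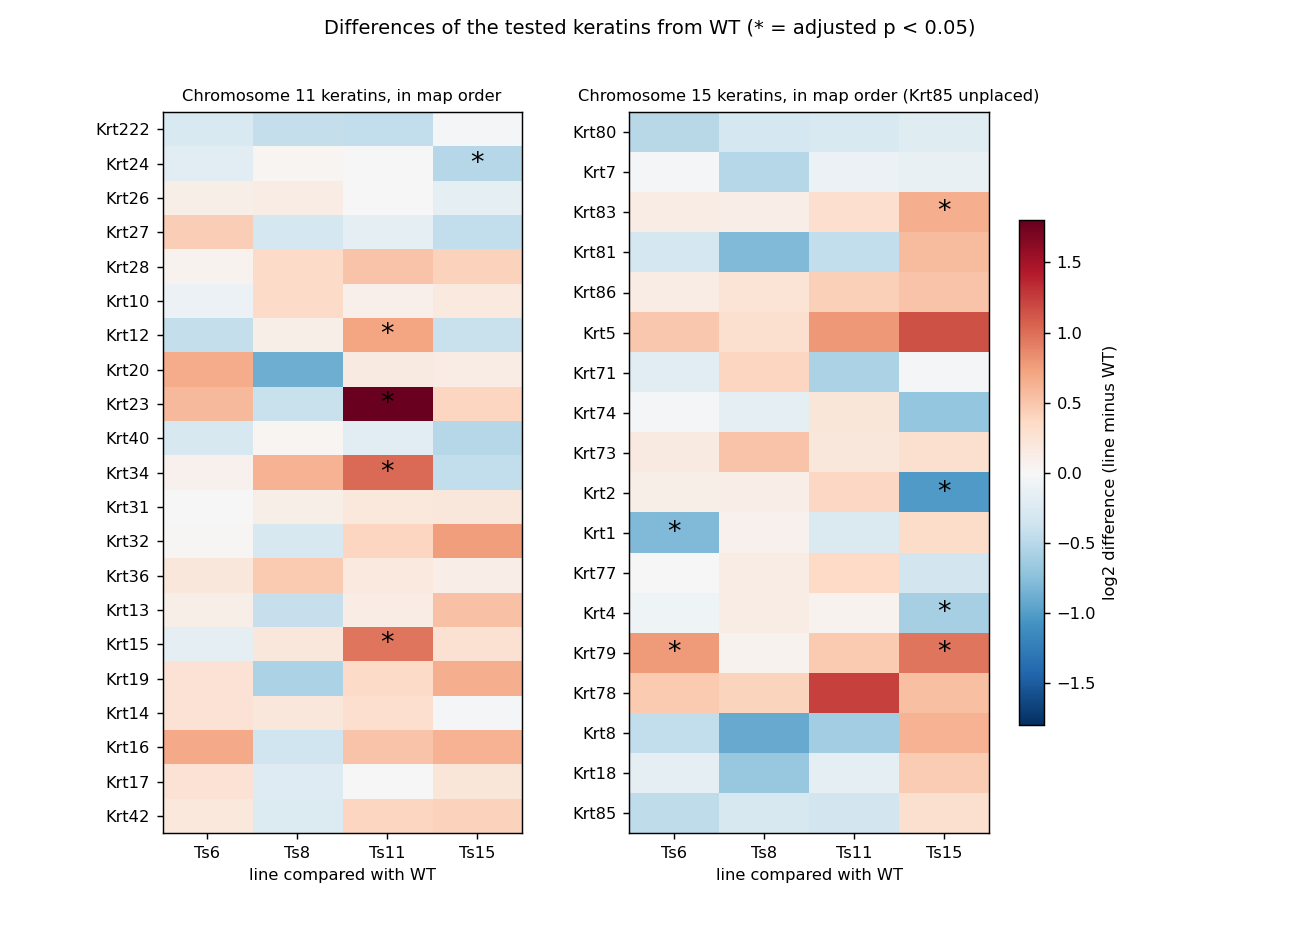
Log2 difference of each trisomic line from WT for the 39 tested keratins, in map order along chromosomes 11 and 15, with the unplaced Krt85 probe last. An asterisk marks an adjusted p under 0.05 in limma, which occurred for 4 keratins in Ts11, 5 in Ts15, 2 in Ts6 and 0 in Ts8.

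As groups, the keratins of a trisomic chromosome had a median difference from WT above 0, and so had the other genes of that chromosome. The 21 chromosome 11 keratins had a median log2 difference of 0.187 in Ts11 against WT, and the 1975 other tested genes of chromosome 11 one of 0.176, with 260 risen and 29 fallen. The 18 chromosome 15 keratins had a median of 0.311 in Ts15 against WT, and the 1088 other tested genes of chromosome 15 one of 0.193, with 108 risen and 33 fallen. On chromosome 15, 2 of the 18 keratins rose and 2 fell in Ts15, and on chromosome 11, 4 of the 21 rose and 0 fell in Ts11. Over all genes tested the medians were 0.003 in Ts11 and -0.006 in Ts15. The chromosome that each line does not carry in excess also had keratin medians above 0, at 0.133 for the chromosome 15 keratins in Ts11 and 0.169 for the chromosome 11 keratins in Ts15, while the other genes of those chromosomes had -0.025 and 0.01. Ts6 had medians of 0.102 over the chromosome 11 keratins and -0.024 over the chromosome 15 keratins. Ts8 had 0.033 and 0.097 in that order. Against the other lines, the chromosome 15 keratins had a median of 0.194 in Ts15 and the other genes of chromosome 15 one of 0.253.

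Few keratins were bright here, and medians of log2 differences varied with brightness. Of the 39 tested, 19 belonged to the dimmest tertile of genes by mean level, 15 to the middle and 5 to the brightest. Other chromosome 11 genes in Ts11 had a median log2 difference of 0.11 in the dimmest tertile and 0.228 in the middle one. Other chromosome 15 genes in Ts15 had -0.01 and 0.223. The distance of the chromosome 11 keratins from WT in Ts11 depended on the array, since their median was 0.04 without Ts11 replicate 1 and 0.37 without Ts11 replicate 2. The chromosome 15 median in Ts15 was 0.2 without WT replicate 2, and 0.39 without WT replicate 1 or without Ts15 replicate 2.

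**Figure D3:**
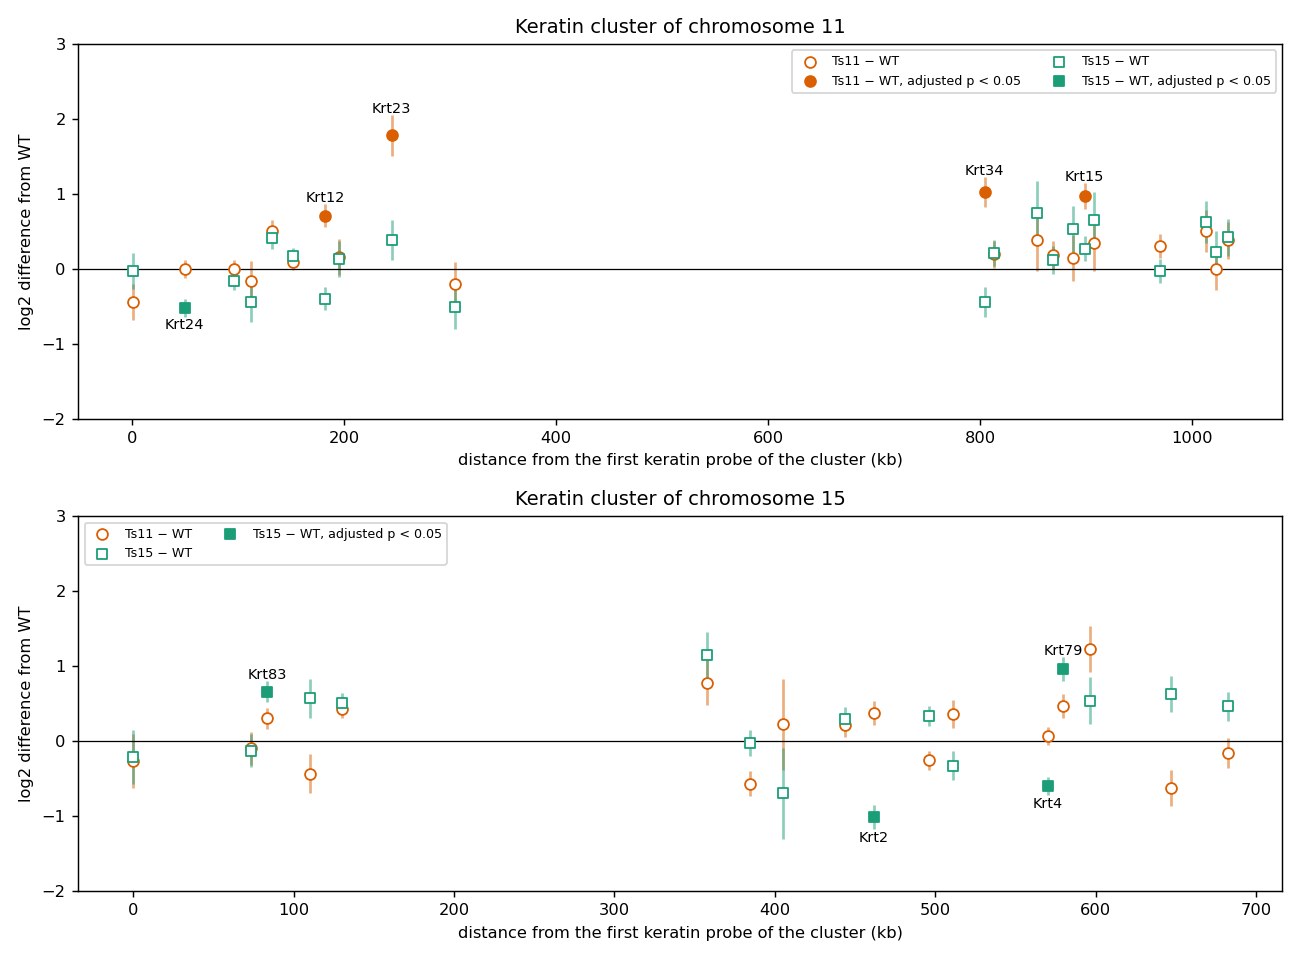
Log2 difference from WT, with its standard error, of tested keratins in Ts11 and Ts15 against distance in kb from the first keratin probe of chromosome 11 or 15, with filled points called at an adjusted p under 0.05. The called keratins of Ts11 lay at separate places in the chromosome 11 cluster, and 17 of the 18 chromosome 15 keratins are drawn because the Krt85 probe is unplaced.

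Keratins that followed replicate order were frequent. In 14 of 39 (35.9%) the level was higher in replicate 1 than in replicate 2 in all 5 groups, and in 0 of 39 it was lower in all 5. Over the 28193 genes tested the shares were 8.9% and 2.6%. Replicate 1 was the lower passage and the upper row of the slide in every group, and these cannot be told apart. The 14 were Krt7, Krt8, Krt18 and Krt19 of simple epithelia and Krt2, Krt13, Krt16, Krt27, Krt32, Krt42, Krt71, Krt81, Krt85 and Krt222. The median difference of replicate 1 from replicate 2 over the keratins was 0.22 in Ts11, 0.17 in Ts15, 0.16 in Ts6 and 0.17 in Ts8, against 0.09 in WT. Over all genes it was 0.07 in Ts11, 0.06 in Ts15, 0.03 in Ts6 and 0.02 in Ts8, against 0 in WT.

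The simple-epithelium keratins tested were Krt7, Krt8, Krt18, Krt19, Krt20 and Krt23. Krt8 and Krt18 were highest in Ts15 of all groups and stood above every array of the other trisomic lines, but they were not called against WT. Krt23 was the keratin with the largest rise in Ts11. Ts8 had lower readings than WT for all 6, with a median log2 difference of -0.624, and limma called none in the main setting. With normexp and quantile Krt8, Krt18 and Krt20 were called in Ts8, and with the replicate number as a block Krt8 was.

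Krt8, the type II partner, read 1.54 and 1.43 in Ts11, 2.85 and 2.64 in Ts15, 1.91 and 1.45 in Ts6, 1.29 and 1.13 in Ts8, against 2.45 and 1.78 in WT. The Ts15 arrays were the highest and WT replicate 1 was next. Ts6 replicate 1 lay above WT replicate 2, and the Ts8 and Ts11 arrays lay below both WT arrays. The log2 difference of Ts15 from the other lines was 1.29 (SE 0.19, adjusted p = 0.005), or 2.44-fold, with both Ts15 arrays above all 6 arrays of the other lines. Against WT it was 0.63 (SE 0.24, adjusted p = 0.16). Neither Ts15 array overlapped with WT, yet the WT replicates themselves lay far apart. The second Krt8 probe, fitted among all probes, gave 0.78 in Ts15 against WT (adjusted p = 0.055) and was called against the other lines. In Ts8 the Krt8 difference from WT was -0.91 (SE 0.24, adjusted p = 0.074), and in Ts11 -0.63 (SE 0.24, adjusted p = 0.15). By the second probe Krt8 was called in Ts8 against WT, at -0.95 (adjusted p = 0.049). Krt8 remained called in Ts15 against the other lines in each of the 16 alternatives computed for it, at 1.18 to 1.39.

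Krt18, the type I partner that lies next to Krt8, read 2.51 and 2.40 in Ts11, 3.17 and 2.97 in Ts15, 2.63 and 2.25 in Ts6, 1.98 and 1.88 in Ts8, against 2.88 and 2.34 in WT. Its order over the groups was the same at the top, with Ts15 highest. Relative to the other lines it was 0.79 (SE 0.16, adjusted p = 0.016) in Ts15, or 1.73-fold, with no overlap of arrays. Against WT it was 0.46 (SE 0.20, adjusted p = 0.21) in Ts15, -0.16 (SE 0.20, adjusted p = 0.67) in Ts11 and -0.68 (SE 0.20, adjusted p = 0.097) in Ts8. Leaving out either Ts15 array ended the Krt18 call.

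Krt23, a type I keratin of chromosome 11, read -0.93 and -0.82 in Ts11, -2.27 and -2.29 in Ts15, -1.67 and -2.47 in Ts6, -2.94 and -3.17 in Ts8, against -2.37 and -2.94 in WT. Both Ts11 arrays lay above all other arrays. The log2 difference from WT was 1.78 (SE 0.27, adjusted p = 0.011), or 3.44-fold, and from the other lines 1.60 (SE 0.22, adjusted p = 0.0089). Ts6 replicate 1 was the next highest array. Krt23 was called against WT without Ts11 replicate 1 and without WT replicate 1, but not without Ts11 replicate 2 or WT replicate 2.

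Krt19, a type I keratin of chromosome 11 that lacks most of the tail domain, read 0.79 and 0.18 in Ts11, 0.94 and 0.65 in Ts15, 0.81 and -0.02 in Ts6, -0.16 and -0.68 in Ts8, against 0.51 and -0.23 in WT. Krt7, a type II keratin of ducts and glands, read -0.34 and -0.51 in Ts11, -0.37 and -0.54 in Ts15, -0.12 and -0.57 in Ts6, -0.75 and -0.95 in Ts8, against -0.04 and -0.61 in WT. The WT and Ts6 replicates of both genes lay far apart, and neither was called in any comparison. Krt20, a type I keratin of the intestinal lining, read -2.16 and -2.82 in Ts11, -2.40 and -2.64 in Ts15, -1.79 and -2.18 in Ts6, -3.39 and -3.68 in Ts8, against -2.73 and -2.57 in WT. Its Ts8 arrays were the lowest, at -0.88 (SE 0.24, adjusted p = 0.081) against WT, and its Ts6 arrays the highest on average, at 0.67 (SE 0.24, adjusted p = 0.13).

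**Figure D4:**
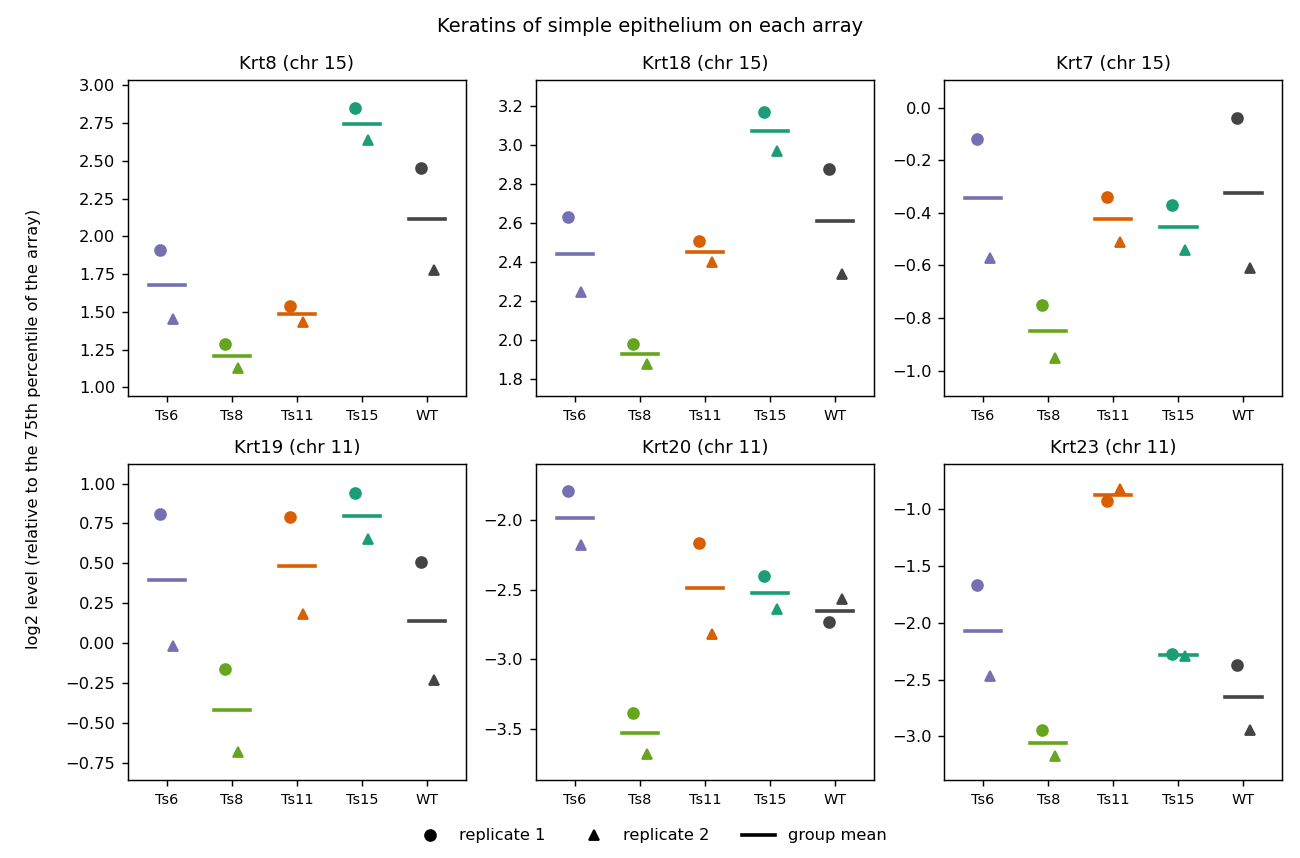
Level (log2 relative to the array's 75th percentile) of the 6 simple-epithelium keratins in each group, with replicate 1 as a circle, replicate 2 as a triangle and the bar at their mean (n = 2). Krt8 and Krt18 were highest in Ts15, and Krt23 was highest in Ts11.

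Keratins of stratified epithelia and epidermis were the largest role group, with 16 tested. In Ts11, Krt12 and Krt15 rose against WT and none fell. In Ts15, Krt79 rose and Krt2, Krt4 and Krt24 fell. The basal pair Krt5 and Krt14 and the suprabasal partner Krt10 were not called in any comparison by the probe used.

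Krt15, a type I keratin of basal cells and the hair follicle bulge, read -3.62 and -3.62 in Ts11, -4.20 and -4.43 in Ts15, -4.85 and -4.65 in Ts6, -4.28 and -4.50 in Ts8, against -4.38 and -4.79 in WT. In Ts11 both arrays stood above all others, 1.96-fold above WT at 0.97 (SE 0.17, adjusted p = 0.017) and 0.87 (SE 0.14, adjusted p = 0.013) against the other lines. Krt12, the type I keratin of the corneal epithelium, read -2.99 and -2.81 in Ts11, -4.05 and -3.95 in Ts15, -3.90 and -4.17 in Ts6, -3.42 and -3.61 in Ts8, against -3.46 and -3.76 in WT. Its Ts11 arrays were likewise the highest, 1.64-fold above WT at 0.71 (SE 0.15, adjusted p = 0.034) and 0.95 (SE 0.13, adjusted p = 0.0073) against the other lines. The second Krt12 probe gave -0.19 in Ts11 against WT and was not called, so the rise rests on 1 of 2 probes. Krt12 was lower in Ts15 than in the other lines, at -0.52 (SE 0.13, adjusted p = 0.027), with arrays that overlapped.

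Krt79, a type II keratin found in the mouse in the hair canal, read -0.20 and -0.47 in Ts11, 0.14 and 0.17 in Ts15, -0.14 and 0.08 in Ts6, -0.54 and -0.93 in Ts8, against -0.75 and -0.85 in WT. It was higher in Ts15 than in WT by 0.96 (SE 0.16, adjusted p = 0.015), or 1.94-fold, and in Ts6 by 0.77 (SE 0.16, adjusted p = 0.027), so the rise was not limited to the line with an extra chromosome 15. In Ts11 the difference was 0.47 (SE 0.16, adjusted p = 0.12), also without overlap. In Ts15 against the other lines Krt79 was 0.52 (SE 0.13, adjusted p = 0.032), a call lost without either Ts15 array, Ts6 replicate 1 or Ts11 replicate 2.

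Krt2, a type II keratin of the upper epidermal layers, read -1.21 and -1.60 in Ts11, -2.68 and -2.91 in Ts15, -1.54 and -1.81 in Ts6, -1.61 and -1.69 in Ts8, against -1.70 and -1.84 in WT. The Ts15 arrays were the lowest, 2.03-fold below WT at -1.02 (SE 0.16, adjusted p = 0.013) and at -1.22 (SE 0.13, adjusted p = 0.0016) against the other lines, although the gene lies on the chromosome in excess. Its second probe was above background on 4 of 10 arrays and was not called in Ts15 against WT. In Ts11 Krt2 was 0.63 (SE 0.13, adjusted p = 0.033) against the other lines, with arrays that overlapped, and against Ts6 and Ts8, the other lines of slide 1, 0.26 (adjusted p = 0.37).

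Krt4, the type II keratin of the oesophageal lining, read -3.21 and -3.30 in Ts11, -3.91 and -3.91 in Ts15, -3.42 and -3.36 in Ts6, -3.15 and -3.20 in Ts8, against -3.46 and -3.15 in WT. It fell in Ts15, with log2 differences of -0.60 (SE 0.12, adjusted p = 0.029) against WT and -0.63 (SE 0.10, adjusted p = 0.0059) against the other lines. Its type I partner Krt13, on chromosome 11, read -0.39 and -0.82 in Ts11, -0.10 and -0.32 in Ts15, -0.27 and -1.01 in Ts6, -0.98 and -1.33 in Ts8, against -0.41 and -1.09 in WT. Krt13 was not called in any comparison by the probe used, and the replicates of most groups lay well apart. Krt24, a type I keratin of chromosome 11, read -2.84 and -3.00 in Ts11, -3.46 and -3.39 in Ts15, -3.03 and -3.19 in Ts6, -2.96 and -2.78 in Ts8, against -2.92 and -2.89 in WT. It fell in Ts15, at -0.52 (SE 0.12, adjusted p = 0.04) against WT and -0.46 (SE 0.10, adjusted p = 0.017) against the other lines, and no Ts15 array overlapped with the rest. The Krt24 call against WT held in 2 of 12 alternatives, and was lost with each other normalization, in the authors' table, with the replicate block and without any 1 of the 4 arrays compared.

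Krt1, the type II keratin of suprabasal epidermis, read -5.13 and -5.06 in Ts11, -4.51 and -4.51 in Ts15, -5.79 and -5.47 in Ts6, -4.67 and -4.85 in Ts8, against -4.79 and -4.88 in WT. It was lower in Ts6 than in WT, at -0.80 (SE 0.13, adjusted p = 0.011), and higher in Ts15 than in the other lines, at 0.65 (SE 0.11, adjusted p = 0.007), while Ts15 against WT was 0.33 (SE 0.13, adjusted p = 0.18). Its type I partner Krt10 read -0.15 and -0.37 in Ts11, -0.19 and -0.17 in Ts15, -0.44 and -0.48 in Ts6, -0.02 and 0.01 in Ts8, against -0.33 and -0.37 in WT. Krt10 was not called in any comparison by the probe used, and its Ts8 arrays were the highest.

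Krt5, the type II keratin of basal cells, read -4.01 and -4.21 in Ts11, -3.58 and -3.92 in Ts15, -4.02 and -4.78 in Ts6, -4.27 and -4.93 in Ts8, against -4.99 and -4.79 in WT. Against WT it was 1.15 (SE 0.30, adjusted p = 0.06) in Ts15 and 0.78 (SE 0.30, adjusted p = 0.15) in Ts11, with both lines above both WT arrays, and its second probe gave -0.23 in Ts15. Krt14, its type I partner, read -1.90 and -2.19 in Ts11, -2.21 and -2.53 in Ts15, -2.05 and -2.12 in Ts6, -2.04 and -2.24 in Ts8, against -2.43 and -2.25 in WT. Differences of Krt14 from WT lay between -0.03 and 0.30.

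Krt16, a type I keratin induced in wounded epidermis, read -2.94 and -3.39 in Ts11, -2.96 and -3.13 in Ts15, -2.87 and -3.11 in Ts6, -3.61 and -4.45 in Ts8, against -3.53 and -3.82 in WT. Krt17, its relative in skin appendages, read -1.87 and -2.27 in Ts11, -1.61 and -2.10 in Ts15, -1.78 and -1.84 in Ts6, -1.95 and -2.64 in Ts8, against -2.32 and -1.82 in WT. Neither gene was called, and Ts8 replicate 2 was the lowest array for both. Krt77, a type II keratin of epidermis and sweat ducts, read -4.79 and -4.77 in Ts11, -5.75 and -5.19 in Ts15, -5.00 and -5.30 in Ts6, -4.98 and -5.04 in Ts8, against -5.10 and -5.17 in WT. Krt78, a type II keratin, read -3.20 and -3.52 in Ts11, -3.59 and -4.50 in Ts15, -3.80 and -4.43 in Ts6, -4.20 and -4.17 in Ts8, against -4.65 and -4.53 in WT. In Ts11 Krt78 was 1.23 (SE 0.31, adjusted p = 0.053) against WT, the largest of a chromosome 15 keratin in that line and short of the threshold. Krt80, a type II keratin, read -3.94 and -4.10 in Ts11, -4.64 and -3.31 in Ts15, -4.36 and -4.14 in Ts6, -4.03 and -4.11 in Ts8, against -3.64 and -3.86 in WT. The Krt80 replicates of Ts15 lay far apart, and no comparison was called for it.

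Hair and nail keratins had 9 members tested. In Ts11, Krt34 rose against WT. In Ts15, Krt83 rose against WT, and Krt81, Krt83 and Krt85, closely related genes, rose against the other lines.

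Krt34, a type I hair keratin of chromosome 11, read -5.79 and -5.79 in Ts11, -6.96 and -7.55 in Ts15, -6.78 and -6.66 in Ts6, -6.29 and -6.08 in Ts8, against -6.96 and -6.65 in WT. It was above background on both Ts11 arrays and 1 Ts8 array only. Krt34 thus passed the filter through Ts11 alone, and its rise in Ts11 is not independent of that filter. Because no WT array was above background, a bound stood in for the WT level, and it put Ts11 at 1.93-fold WT. The fitted adjusted p was 0.026 by limma, with measured means of -5.79 in Ts11 and -6.81 in WT. A bound sets the mean of the line against, on each WT array, the higher of the probe's own level and the lowest level among probes well above background. The bound is no firm minimum. On 1 Ts8 array Krt34 was not above background although it read higher than that lowest level. Ts11 was above the other lines with an adjusted p of 0.018, where 1 of their 6 arrays was above background. In Ts15 it was below that of the other lines with an adjusted p of 0.0064, but no Ts15 or Ts6 array was above background. Those other lines include Ts11, so that fall is not independent of the filter either. No size is given for either difference.

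Krt81, a type II hair keratin, read 0.07 and -0.07 in Ts11, 1.08 and 0.94 in Ts15, 0.41 and -0.16 in Ts6, -0.26 and -0.47 in Ts8, against 0.80 and 0.08 in WT. Krt83, another, read -1.81 and -2.09 in Ts11, -1.57 and -1.63 in Ts15, -1.99 and -2.27 in Ts6, -2.17 and -2.11 in Ts8, against -2.27 and -2.25 in WT. Krt85, also of this kind, read 1.87 and 1.65 in Ts11, 2.43 and 2.34 in Ts15, 1.68 and 1.57 in Ts6, 1.85 and 1.75 in Ts8, against 2.22 and 1.96 in WT. In all 3 the Ts15 arrays were above every array of the other trisomic lines, and for Krt81 and Krt85 a WT array was next. In Ts15 against the other lines Krt81 was 1.09 (SE 0.21, adjusted p = 0.013), Krt83 0.47 (SE 0.11, adjusted p = 0.025) and Krt85 0.65 (SE 0.11, adjusted p = 0.0069). Against WT Krt83 was 0.66 (SE 0.14, adjusted p = 0.03), or 1.58-fold, Krt81 0.57 (SE 0.26, adjusted p = 0.23) and Krt85 0.29 (SE 0.13, adjusted p = 0.22). The second tested Krt85 probe gave -0.09 in Ts15 against the other lines.

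Krt86, the remaining type II hair keratin tested, read -4.27 and -4.32 in Ts11, -4.13 and -4.29 in Ts15, -4.73 and -4.46 in Ts6, -4.45 and -4.50 in Ts8, against -4.82 and -4.62 in WT. It was 0.51 (SE 0.13, adjusted p = 0.057) in Ts15 and 0.43 (SE 0.13, adjusted p = 0.092) in Ts11 against WT, each without overlap and neither called. Krt31, a type I hair keratin, read -4.20 and -4.43 in Ts11, -4.26 and -4.33 in Ts15, -4.47 and -4.54 in Ts6, -4.56 and -4.24 in Ts8, against -4.74 and -4.26 in WT. Krt32, of the hair cuticle, read -4.19 and -4.82 in Ts11, -3.90 and -4.39 in Ts15, -4.43 and -5.32 in Ts6, -4.97 and -5.39 in Ts8, against -4.41 and -5.37 in WT. Neither was called in any comparison, and the Krt32 replicates of WT and Ts6 lay far apart. Krt36 read -4.39 and -4.77 in Ts11, -4.70 and -4.58 in Ts15, -4.66 and -4.43 in Ts6, -4.09 and -4.48 in Ts8, against -4.88 and -4.64 in WT. Krt40 read -4.21 and -4.49 in Ts11, -4.59 and -4.70 in Ts15, -4.62 and -4.24 in Ts6, -4.23 and -3.97 in Ts8, against -4.63 and -3.65 in WT. Neither of these type I hair keratins was called in any comparison, and the WT replicates of Krt40 lay far apart.

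Inner root sheath keratins form the sheath that guides the growing hair, and 6 were tested. None was called in any line against WT. Krt71, a type II member, read -4.96 and -5.36 in Ts11, -4.61 and -4.62 in Ts15, -4.63 and -4.96 in Ts6, -4.16 and -4.27 in Ts8, against -4.47 and -4.71 in WT. The Ts11 arrays were the lowest on average, at -0.57 (SE 0.17, adjusted p = 0.089) against WT and -0.62 (SE 0.14, adjusted p = 0.041) against the other lines, with Ts6 replicate 2 level with Ts11 replicate 1. Against Ts6 and Ts8, the other lines of slide 1, Ts11 gave -0.66 (adjusted p = 0.082). Krt28, a type I member, read -2.68 and -2.29 in Ts11, -2.53 and -2.65 in Ts15, -2.88 and -2.97 in Ts6, -2.63 and -2.66 in Ts8, against -2.95 and -3.04 in WT. In Ts11 it was 0.51 (SE 0.14, adjusted p = 0.069) against WT, without overlap.

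Krt26, a type I member, read -4.25 and -4.32 in Ts11, -4.37 and -4.54 in Ts15, -4.28 and -4.08 in Ts6, -4.22 and -4.08 in Ts8, against -4.35 and -4.21 in WT. Krt27, its neighbour, read -3.43 and -4.07 in Ts11, -3.92 and -4.17 in Ts15, -2.95 and -3.35 in Ts6, -3.66 and -4.17 in Ts8, against -3.59 and -3.60 in WT. Neither passed the test in any comparison, and the WT readings of Krt27 lay above those of Ts8 and Ts15 and below those of Ts6. Krt73, a type II member, read -2.77 and -3.17 in Ts11, -2.74 and -3.05 in Ts15, -3.07 and -2.98 in Ts6, -2.63 and -2.71 in Ts8, against -3.27 and -3.10 in WT. Krt74, also type II, was above background on 8 of 10 arrays, and its differences from WT were 0.22 (SE 0.61, adjusted p = 0.86) in Ts11 and -0.70 (SE 0.61, adjusted p = 0.53) in Ts15. The spread of Krt74 replicates was the widest among the keratins tested.

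Krt42 and Krt222, of chromosome 11, fall outside these roles. Krt42, a type I keratin, read 1.11 and 0.66 in Ts11, 1.09 and 0.76 in Ts15, 0.95 and 0.42 in Ts6, 0.38 and 0.15 in Ts8, against 0.74 and 0.27 in WT. Krt222, whose probe holds the CA run printed above, read 4.86 and 4.70 in Ts11, 5.40 and 4.99 in Ts15, 5.00 and 4.91 in Ts6, 4.93 and 4.67 in Ts8, against 5.57 and 4.89 in WT. Neither was called, and each was higher in replicate 1 in every group.

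**Figure D5:**
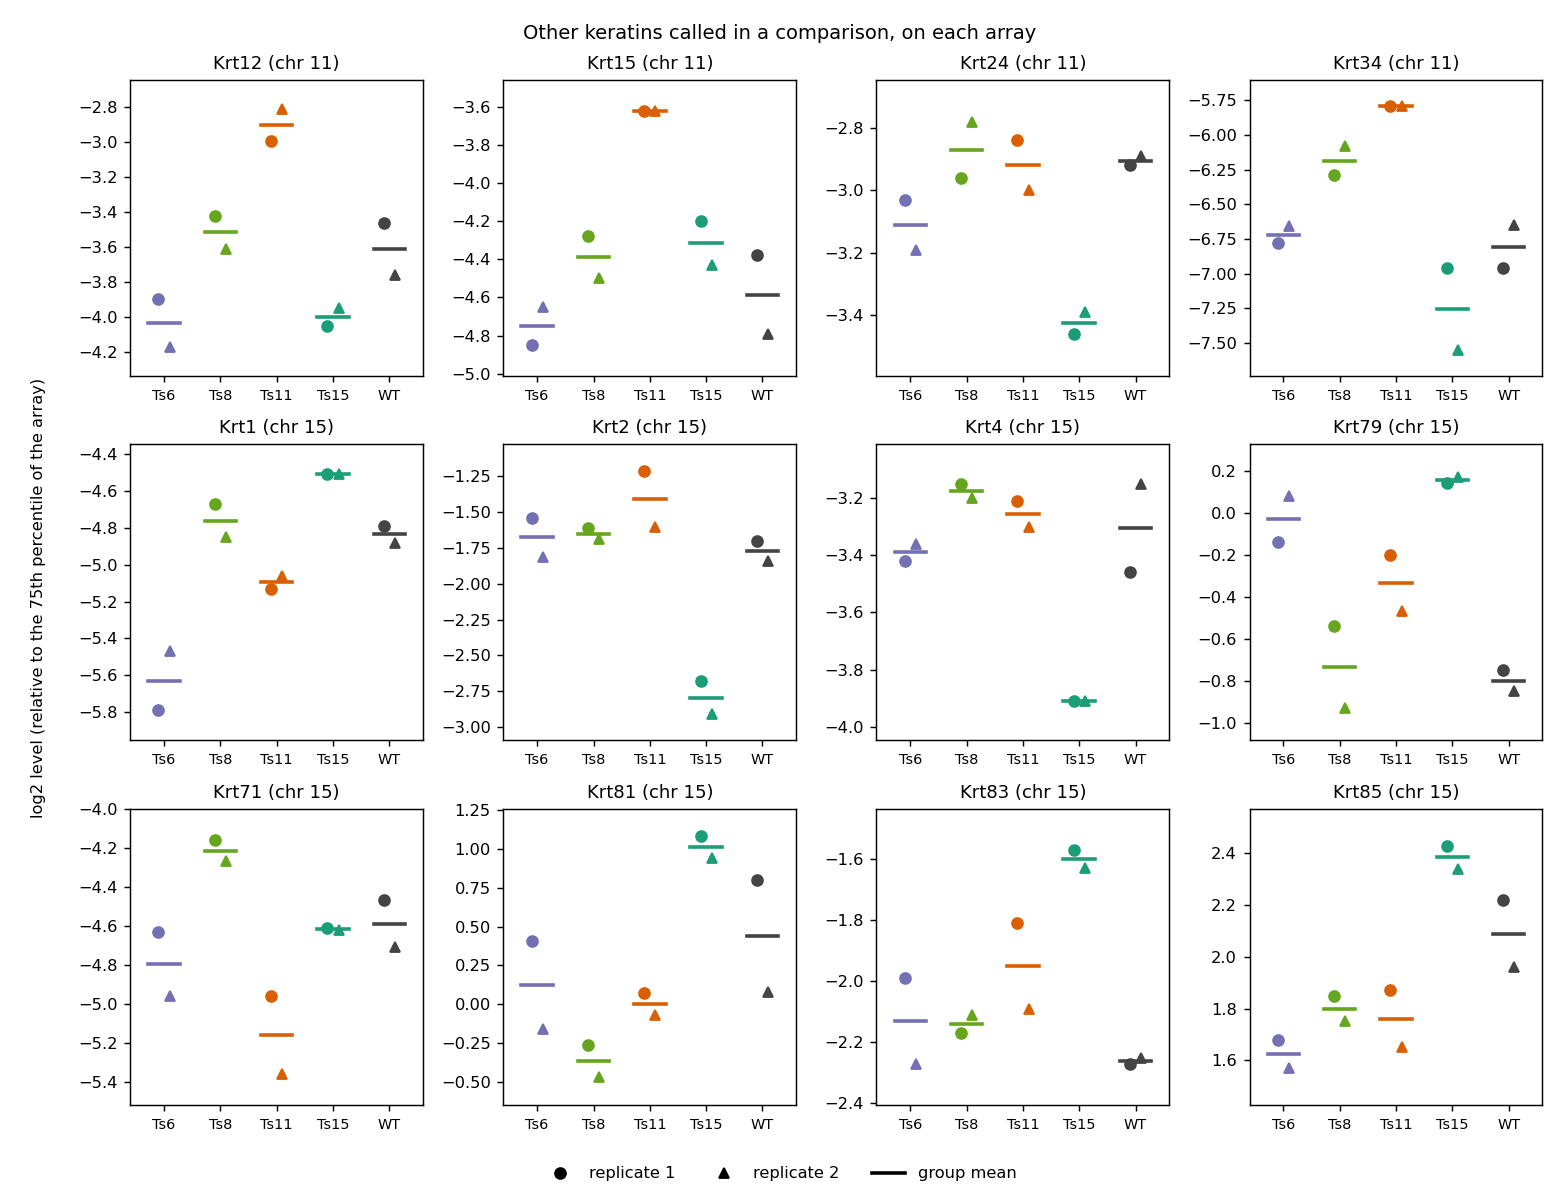
Level (log2 relative to the array's 75th percentile) of 12 called keratins of stratified epithelium, hair and the inner root sheath in each group, with replicate 1 as a circle, replicate 2 as a triangle and the bar at their mean (n = 2). Krt12, Krt15 and Krt34 were highest in Ts11, and Krt2, Krt4 and Krt24 were lowest in Ts15.

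Probes of one gene did not always have the same sign. Of the 9 keratins with several tested probes, 3 had probes of opposite sign in Ts11 against WT, 5 in Ts15, 5 in Ts6 and 2 in Ts8. These counts include differences near 0 and dim second probes, of which that of Krt2 was above background on 4 of 10 arrays, that of Krt36 on 5 and that of Krt42 on 7. The Krt8 probes kept the same sign against WT in all 4 lines. Against the other lines, a second Krt13 probe was called in Ts11, at 0.81, and a second Krt10 probe in Ts15, at -0.61. The Krt78 probes share 50 bases out of their 50-base overlap. What sets such probes apart was not tested.

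Genes that flank or lie between the keratins were compared in the same fits, because they share the extra chromosome. For comparison, 4.03% of all genes tested rose and 4.1% fell in Ts11 against WT, and 2.58% rose and 4.86% fell in Ts15. Among 43 tested gene names within 500 kb of the chromosome 11 cluster 5 rose and 2 fell in Ts11 against WT, with a median of 0.109. The 2 falls were Leprel4 and P3h4, which are an older and the current symbol of 1 gene in the RefSeq table. The largest rises were those of Klhl10, a gene active in sperm formation, at 1.82 (SE 0.19, adjusted p = 0.003), Cdc6, a DNA replication licensing factor, at 0.79 (SE 0.11, adjusted p = 0.0078), and Klhl11 at 0.62 (SE 0.15, adjusted p = 0.049). Of 9 Krtap genes, which encode keratin-associated proteins of hair and lie inside the cluster, limma called 0, with a median of -0.028. At an unadjusted p under 0.05, 0 were higher and 1 lower, where 25.3% of all genes passed. Another 18 tested genes and unnamed transcripts between the keratins had 0 rises and 4 falls, with a median of -0.358. In Ts15 against WT, 54 flanking genes and unnamed transcripts of the chromosome 15 cluster had 5 rises and 0 falls, with a median of 0.154. The largest were Gm9693 at 0.76 (SE 0.14, adjusted p = 0.018), Csad, a taurine synthesis enzyme, at 0.54 (SE 0.11, adjusted p = 0.034), and Atg101, an autophagy factor, at 0.5 (SE 0.1, adjusted p = 0.025). The 3 tested genes between the chromosome 15 keratins that are not keratins themselves had a median of 0.187 and limma called 0 of them. At an unadjusted p under 0.05 the number was also 0, where 24.4% of all genes passed. On the chromosome not in excess, the flanks had 1 rise and 3 falls in Ts15 on chromosome 11 and 1 rise and 5 falls in Ts11 on chromosome 15.

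Promoters are shown for Krt8 and Krt18, which are neighbours and were both highest in Ts15, and for Krt23 and Krt12, which rose in Ts11. Each run is the 250 bases before the RefSeq gene start in GRCm38.p6 (another build than that of the probes), on the gene's strand, with matches to TATAAN in capitals. The positions are chr15:102004343-102004592 on the minus strand for Krt8, chr15:102027966-102028215 on the plus strand for Krt18, chr11:99493121-99493370 on the minus strand for Krt23 and chr11:99422260-99422509 on the minus strand for Krt12.
Krt8 promoter: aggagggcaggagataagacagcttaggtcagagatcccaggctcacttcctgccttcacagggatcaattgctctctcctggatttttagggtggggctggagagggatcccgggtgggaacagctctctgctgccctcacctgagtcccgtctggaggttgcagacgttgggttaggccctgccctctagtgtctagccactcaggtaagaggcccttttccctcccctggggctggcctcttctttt
Krt18 promoter: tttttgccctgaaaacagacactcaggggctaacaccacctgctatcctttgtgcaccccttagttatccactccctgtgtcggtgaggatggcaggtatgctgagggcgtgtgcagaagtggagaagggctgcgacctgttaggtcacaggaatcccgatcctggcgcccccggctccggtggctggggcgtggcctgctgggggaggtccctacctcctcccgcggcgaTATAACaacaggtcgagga
Krt23 promoter: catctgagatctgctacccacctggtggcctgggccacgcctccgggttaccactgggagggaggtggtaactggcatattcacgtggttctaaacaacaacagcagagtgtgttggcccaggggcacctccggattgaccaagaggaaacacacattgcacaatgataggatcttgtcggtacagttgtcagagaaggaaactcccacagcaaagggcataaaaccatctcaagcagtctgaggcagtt
Krt12 promoter: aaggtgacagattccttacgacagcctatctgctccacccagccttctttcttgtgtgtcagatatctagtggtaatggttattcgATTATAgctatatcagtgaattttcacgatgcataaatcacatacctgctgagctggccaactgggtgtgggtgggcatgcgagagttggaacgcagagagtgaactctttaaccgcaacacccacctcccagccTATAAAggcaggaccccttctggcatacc
The Krt18 promoter holds TATAAN 19 bases before the start and the Krt12 promoter 29 bases before it, with another match on the opposite strand 164 bases before it. Krt8 and Krt23 have no match in these windows. The GC content was 58.0% for Krt8, 60.4% for Krt18, 52.8% for Krt23 and 48.4% for Krt12.

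RefSeq promoters were matched for 33 of the 47 keratins, as 34 windows, and both strands were searched for TATAAN, for GGGCGG and for TGANTCA, none of which is contained in another. TATAAN, the TATA box core, was in 22 of 34 keratin windows (64.7%) and in 7463 of 32851 windows of all genes (22.7%). GGGCGG, a GC box, was in 2 of 34 (5.9%) against 32.7% of all, and TGANTCA, the AP-1 core, in 2 of 34 (5.9%) against 6.7%, both windows being those of Krt13. By role TATAAN was in 7 of 8 hair and nail, 6 of 7 inner root sheath and companion layer, 7 of 13 stratified and 2 of 5 simple-epithelium windows, the last being Krt18 and Krt20. Median GC was 47.4% over keratin windows, 58.0% over those of simple epithelia and 52.4% over all genes.

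Few other genes of the keratin system were called against WT in Ts11 or Ts15. Lists were counted without keratins in them. Among all genes tested 4.03% rose and 4.1% fell in Ts11 against WT, and 2.58% rose and 4.86% fell in Ts15. Of 17 other intermediate filament genes, 1 rose and 0 fell in Ts11 against WT with a median of -0.16, the lens filament gene Bfsp2 at 1.15 (SE 0.27, adjusted p = 0.041). In Ts15 limma called 0 of 17, with a median of 0.006. At an unadjusted p under 0.05, 3 were higher and 4 lower, where 24.4% of all genes passed. In Ts6 against WT, 1 of the 17 rose and 5 fell, where 4.44% of all genes rose and 4.6% fell. Of 22 desmosome and keratin linker genes, 1 fell in Ts11, the tetraspanin gene Cd151 at -0.46 (SE 0.09, adjusted p = 0.028), with a median of 0.091. In Ts15 1 rose, Eppk1, which encodes the keratin-binding linker epiplakin on chromosome 15, at 1.32 (SE 0.2, adjusted p = 0.012), with a median of 0.134. Of 19 epithelial transcription factor genes 1 rose and 1 fell in Ts11, Grhl1 at 0.63 (SE 0.15, adjusted p = 0.046) and Junb at -0.86 (SE 0.16, adjusted p = 0.021), and 2 rose in Ts15, Ovol1 at 0.65 (SE 0.15, adjusted p = 0.04) and Tfap2c at 0.51 (SE 0.1, adjusted p = 0.03). The medians were -0.029 in Ts11 and 0.227 in Ts15.

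Among the lists of cell types that use Krt8 and Krt18, primitive and visceral endoderm had the most calls in Ts15 against WT. Limma called 2 of 10 trophectoderm genes and 0 of 16 epithelial cell genes there. Of 16 genes of primitive and visceral endoderm, early lineages that express both keratins, 11 rose and 0 fell in Ts15 against WT, with a median of 0.999. The shares over all genes were 2.58% risen and 4.86% fallen. Against the other lines 13 rose and 0 fell, with a median of 1.34, where 7.08% of all genes rose and 12.1% fell. The largest differences from WT were Sox17 at 2.48 (SE 0.27, adjusted p = 0.0034), Foxa2 at 1.95 (SE 0.31, adjusted p = 0.013), Sox7 at 1.52 (SE 0.21, adjusted p = 0.0078) and Gata6 at 1.51 (SE 0.22, adjusted p = 0.0088), all endoderm transcription factors. The list's summed level was 4.76 and 4.82 in Ts11, 5.96 and 5.65 in Ts15, 4.86 and 4.72 in Ts6, and 4.76 and 4.83 in Ts8, against 4.95 and 4.88 in WT, with 15 or 16 of 16 genes above background on each array. Their part in the higher Krt8 and Krt18 of Ts15 was not tested. In Ts11 limma called 0 of the 16 against WT, with a median of -0.449. At an unadjusted p under 0.05, 1 was higher and 6 lower, where 25.3% of all genes passed. Against the other lines 8 fell in Ts11, where 3.66% of all genes fell.

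Of 10 trophectoderm genes 2 rose in Ts15, Hand1 at 1.32 (SE 0.27, adjusted p = 0.028) and Tfap2c, and 1 rose in Ts11, the X-linked homeobox gene Esx1 at 1.24 (SE 0.18, adjusted p = 0.0087). Summed trophectoderm levels were 4.65 and 4.51 in Ts11 and 4.94 and 4.69 in Ts15, against 4.5 and 4.46 in WT, and Elf5, a defining gene, was above background on no array. Against the other lines 6 of the 10 rose and 2 fell in Ts15, with a median of 0.443. Among all genes 7.08% rose and 12.1% fell in that comparison. Against WT the shares over all genes were 2.58% and 4.86% in Ts15, and 4.03% and 4.1% in Ts11. Of 16 epithelial cell genes 0 rose and 2 fell in Ts11, Cldn3 at -1.35 (SE 0.17, adjusted p = 0.0058) and Esrp2 at -1.02 (SE 0.25, adjusted p = 0.05 after rounding), a claudin and a splicing factor. In Ts15 limma called 0 of 16 against WT. At an unadjusted p under 0.05, 2 were higher and 0 lower, where 24.4% of all genes passed. Against the other lines 4 rose and 0 fell in Ts15, with a median of 0.187. Of 7 epidermis genes 1 rose in Ts11, Lamb3 at 1.01 (SE 0.16, adjusted p = 0.012), a laminin chain. In Ts15 Lamb3 rose by 1.3 (SE 0.16, adjusted p = 0.0051) and Ivl, which encodes involucrin, was at -0.87 (SE 0.14, adjusted p = 0.013). Dsc3, a desmosomal cadherin of basal epidermis, was above background on no array.

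Fibroblast markers, which the feeder cells could bring, had 13 genes tested, of which limma called 0 in Ts11 and 0 in Ts15 against WT, with 0 unadjusted in both. Their summed level was 5.34 and 5.09 in Ts11, 5.43 and 5.62 in Ts15, 4.82 and 5.17 in Ts6, and 5.2 and 4.99 in Ts8, against 5.26 and 5.34 in WT, with 10 to 13 of 14 genes above background and Lum on no array. Against the other lines 3 of the 13 rose in Ts15, where 7.08% of all genes rose. Of the ES cell markers 10 of 10 were above background on every array, with a summed level between 7.16 and 7.48. Detection does not set 1 cell type apart here, since 16 of 16 epithelial cell markers were above background on every array too. Of the 10 ES cell markers, limma called 0 in Ts11 and 0 in Ts15 against WT, with 4 lower in Ts11 and 1 lower in Ts15 unadjusted. Over all genes 25.3% in Ts11 and 24.4% in Ts15 had an unadjusted p under 0.05.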

How the data were processed

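RNA of 10 samples was amplified, labelled with Cy3 and hybridised to one-colour Agilent mouse arrays. Per the file headers, the deposited scanner files came from Agilent Feature Extraction 10.7.3.1 with probe positions in mm9, and they hold the processed intensity of each spot after the scanner's background correction, with flags for spots well above background. The authors also deposited a series table of log2 values, whose normalization is not given in the sources used here: its column medians ran between -3.41 and -3.31 with the same SD (3.81) in each, so its scale and centring stay unknown, and it served as an alternative only.

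Spots with a flagged value were left out (176 probes had one), spots of a probe were averaged, and log2 intensity minus the 75th percentile of the array was tested. A probe entered the fit if 1 group or more had it above background in both replicates (43056 probes, 28193 genes). A fit with all 5 groups in limma 3.58.1 (R 4.3.3; residual df 5, prior df 2.67) gave log2 differences, with Benjamini-Hochberg adjustment over all genes. Tables used Python 3.11.15, pandas 2.3.3 and numpy 2.4.6, figures matplotlib 3.10.9. The fit was tested on simulated data. The spots above background ranged from 71.4% to 80.2% per array, 0 were saturated, and the number of arrays limits the precision. Ts11 and Ts15 were compared with WT and with the other 3 lines. The replicate block, 2 other normalizations, the authors' table, the filter, the choice of probe, the samples fitted, slide 1 alone and each array left out were alternatives.

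The members, gene lists and roles were chosen with earlier results of these data known. Every tested keratin is named; of each list up to 4 called genes with the largest change in Ts11 or Ts15 against WT are named, and of the flanks up to 3. The lists were other intermediate filaments, desmosome and keratin linkers, epithelial transcription factors, and markers of epithelial cells, trophectoderm, endoderm, epidermis, fibroblast feeders and ES cells. Same-numbered samples had correlations of deviations between -0.1 and 0.392, so the numbers were not taken to pair samples. Symbols and promoters are from RefSeq (GRCm38.p6).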

Additional observations from a re-analysis of the deposited data

Results flagged for a closer look

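Keratins that differed between 1 trisomic line and the mean of the other 3 by limma's test of that difference (adjusted p under 0.05) are listed with their log2 differences, and no explanation was weighed. In Ts11 they were Krt23 at 1.6, Krt12 at 0.95, Krt34 at 0.94, Krt15 at 0.87 and Krt2 at 0.63, all higher, and Krt71 at -0.62, lower. In Ts15 the higher ones were Krt8 at 1.29, Krt81 at 1.09, Krt18 at 0.79, Krt1 at 0.65, Krt85 at 0.65, Krt79 at 0.52 and Krt83 at 0.47. The lower ones in Ts15 were Krt2 at -1.22, Krt34 at -1.03, Krt4 at -0.63, Krt12 at -0.52 and Krt24 at -0.46. The Krt34 values are fitted and give no size, since no Ts15 or Ts6 array and 1 Ts8 array was above background. Krt34 passed the filter through Ts11 alone, so neither of its values is independent of the filter. Line and slide cannot be told apart for the Ts15 values.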

How the results depend on the processing

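Precision is limited by 2 arrays a group and by dim probes. With an array left out, the lone array of its group is assumed to vary like those of the other groups. In Ts11 against WT 4 keratins were called, 0 with only the compared groups fitted and 0 to 3 with 1 array left out. In Ts15 against WT 5 were called, 2 without the filter on dim probes, 2 with only the compared groups and 0 to 2 with 1 array left out. In Ts6 against WT 2 were called, 1 with only the compared groups and 0 to 1 with 1 array left out. In Ts8 against WT limma called 0, with normexp and quantile 3 (Krt8, Krt18 and Krt20), with the replicate block 1 (Krt8). Against the other lines, 6 were called in Ts11, 1 to 4 with 1 array left out, and 12 in Ts15, 5 to 12 with 1 array left out. With the replicate number as a block the counts were 6 in Ts11, 7 in Ts15 and 3 in Ts6 against WT, and 6 in Ts11 and 15 in Ts15 against the other lines; of the 29 called gene results it ended 1, Krt24. The median of chromosome 15 keratins in Ts15 against WT was 0.31, 0.38 in the authors' table and 0.2 to 0.39 with 1 array left out, and that of chromosome 11 keratins in Ts11 was 0.19, with 0.04 to 0.37. Keratin probes above background averaged 74.8% over arrays, and 81.9% counted over genes. No direction of a called keratin turned under any alternative computed. Normexp and quantile ended 6 of the 29, quantile 3, no filter 7, the mean of a gene's probes 7, fitting only the compared groups 9 and use of the authors' values 2. The causes were not tested.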

Other observations

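Keratin genes with a letter or suffix in their array name fall outside the rule. In Ts11 against WT the log2 differences were 0.59 (SE 0.23, adjusted p = 0.16) for Krt33a, 0.65 (SE 0.24, adjusted p = 0.14) for Krt33b, -1.11 (SE 0.43, adjusted p = 0.16) for Krt6a, 0.19 (SE 0.32, adjusted p = 0.76) for Krt6b and 0.46 (SE 0.16, adjusted p = 0.13) for Krt72, all by limma. In Ts15 against WT they were -0.19 (SE 0.23, adjusted p = 0.65) for Krt33a, -0.27 (SE 0.24, adjusted p = 0.54) for Krt33b, 0.04 (SE 0.43, adjusted p = 0.97) for Krt6a, 0.05 (SE 0.32, adjusted p = 0.94) for Krt6b and -0.33 (SE 0.16, adjusted p = 0.27) for Krt72. Krt33a and Krt33b are type I hair keratins of chromosome 11, and Krt6a and Krt6b type II keratins of chromosome 15 that wounded epidermis induces.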
